A study of Mus musculus with 4 samples.

Results

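Semaphorins, plexins, Eph receptors and ephrins were followed on 4 Affymetrix mouse expression arrays. A gene was a member when the platform annotation gave a probe set 1 symbol of these families, and the probe set with the highest mean signal over the 4 arrays represented it. This gave 50 genes out of 18193, namely 20 semaphorins, 9 plexins, 13 Eph receptors and 8 ephrins, covered by 115 probe sets. The arrays held RNA from cells labelled as endothelium of collecting lymphatic vessels, dissected where they drained a flank tumour and sorted magnetically. Both groups carried a tumour of 293EBNA cells, a line derived from human embryonic kidney, grown to 2000 mm3. In the Apex group (2 arrays) the tumour cells held the empty APEX vector, and in the VEGFD group (2 arrays) they held that vector with VEGFD, which encodes vascular endothelial growth factor D. The tumour cells, not the mice, carried the vector. The mouse strain, age and sex, the species of the VEGFD insert, and whether an array stood for 1 mouse or a pool are not stated in the labels, so p-values measure only the spread between these arrays. The question was how the vessel endothelium differs when the tumour makes VEGF-D.

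Semaphorins are secreted or membrane-bound signals first known for steering growing nerve fibres, and plexins are their receptors. Class 3 semaphorins are secreted and mostly need a neuropilin beside the plexin, while SEMA3E binds plexin D1 directly. Ephrins are tethered to the cell surface and bind Eph receptor tyrosine kinases on a neighbouring cell, with signals running into both cells. In lymphatic vessels the ephrin-B2 and EphB4 pair and the semaphorin 3A, neuropilin and plexin A1 set are known for their part in forming collecting vessels and valves.

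The endothelial label was only partly borne out. Of 12 pan-endothelial markers, 12 exceeded a signal of 25.3 in Apex replicate 2, against 6 in Apex replicate 1, 6 in VEGFD replicate 1 and 3 in VEGFD replicate 2. The signal of 25.3 is that of the filter on dim probe sets described below. Cdh5, which encodes VE-cadherin, had signals of 13, 146, 4.2 and 3.1, and the lymphatic regulator Prox1 had 11.2, 11.6, 3.19 and 5.94. Other lymphatic genes were brighter, with Pdpn at 963, 1622, 1237 and 1715 and Flt4 at 42.6, 247, 161 and 145. Of 6 lymphatic endothelial markers on the arrays, 2, 4, 3 and 3 exceeded 25.3. Their summed signal, most of it from Pdpn, was 1056, 2091, 1467 and 1938. All signals here are linear intensities, those of the 2 Apex arrays first and of the 2 VEGFD arrays second, by replicate number. The summed signal of the 12 endothelial markers was 773, 4406, 1207 and 490.2, and that of 10 fibroblast markers was 23623, 20011, 23056 and 23554. The 9 smooth muscle and pericyte markers summed to 7615, 8857, 9373 and 18565. The last sum was carried by the contractile genes Acta2 (8802), Tagln (5553) and Myl9 (2387). The pericyte genes were mixed. Pdgfrb (2978, 3479, 2123 and 1268) and Rgs5 (20.4, 46.0, 25.2 and 18.0) were lowest in VEGFD replicate 2. Cspg4 (109, 124, 61.7 and 299) was highest there. Apex replicate 2 thus stood apart in endothelial signal and VEGFD replicate 2 in contractile gene signal. In such bulk samples, fewer cells of a type and less RNA per cell cannot be told apart.

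Of the 50 genes, 33 had a mean at or above the median probe set and were tested, namely 14 semaphorins, 8 plexins, 5 Eph receptors and 6 ephrins. The other 17 are given by their signals. Each log2 difference subtracts the Apex from the VEGFD mean of log2(signal + 16), and its standard error (SE) comes from a limma fit over all 11677 tested genes, n = 2 and 2. No member passed a Benjamini-Hochberg adjusted p of 0.05 in that limma fit, and neither did any other tested gene (0%). The members' limma adjusted p values ran from 0.823 to 0.998. At an unadjusted p under 0.05 stood 4 members, Sema3f, Sema5a, Plxna2 and Efna2, all with less signal in VEGFD arrays, where 5.7% of all tested genes lay under that value, 3.75% of them on the lower side. Lower in VEGFD were 24 members and higher 9, with a median of -0.28, against 53.6% lower and a median of -0.035 over all tested genes. With arrays centred on their medians, a step that moved the median of all genes to 0.088, the members split into 21 lower and 12 higher and all genes into 40.7% lower. The groups did not overlap for 14 members (9 lower, 5 higher), against 38.5% of all tested genes. At least 2-fold apart on that scale and without overlap were 2 members, Efna2 and Epha4, against 3.88% of all tested genes. For both, 1 group mean lay below the filter, so they were tested through the group where they were high. With a pseudocount of 1 the members 2-fold apart without overlap were 3, Efna2, Sema3f and Sema5a, so that Epha4 was not among them. Leaving out Apex replicate 1 or VEGFD replicate 2 raised that count to 7, and leaving out VEGFD replicate 1 raised it to 5, though 3 arrays separate by chance more readily than 4. The members' count without overlap lay near its background share.

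**Figure D1:**
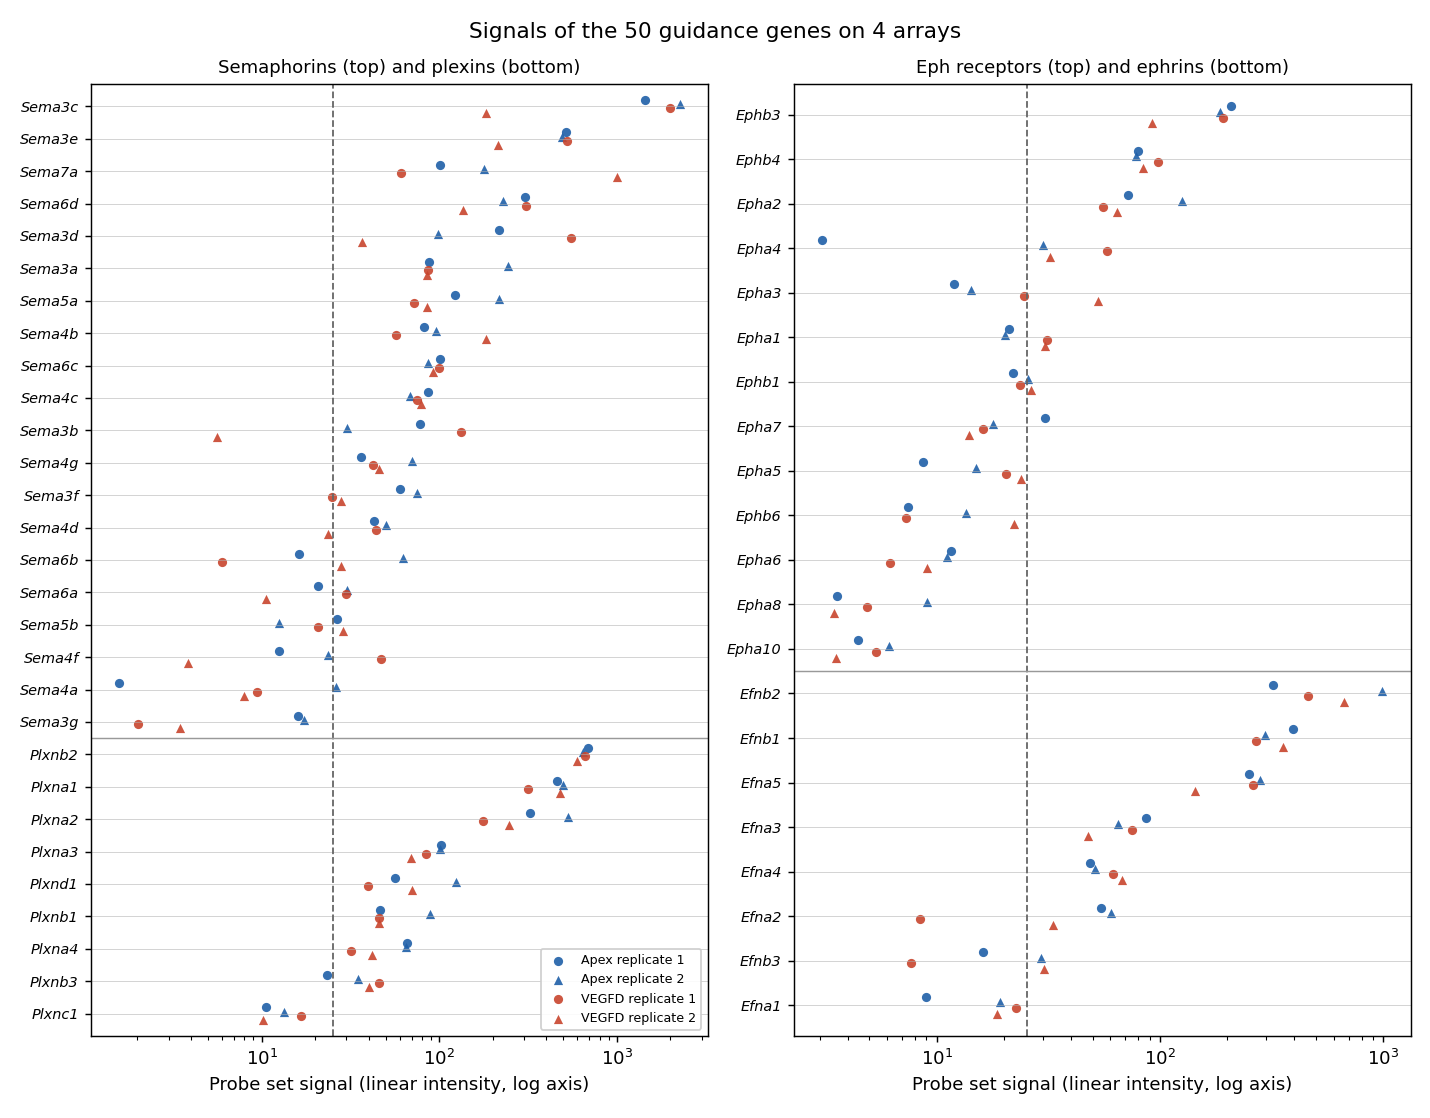
Probe set signal (linear intensity on a log axis) of all 50 genes on the 4 arrays, with blue for Apex, red for VEGFD, circles for replicate 1 and triangles for replicate 2. Points are shifted slightly up or down so that they can be told apart. The dashed line marks the filter signal of 25.3. Within the semaphorins the VEGFD replicate 2 triangle lies far left of the other points for Sema3c, Sema3d and Sema3b and far right for Sema7a.

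**Figure D2:**
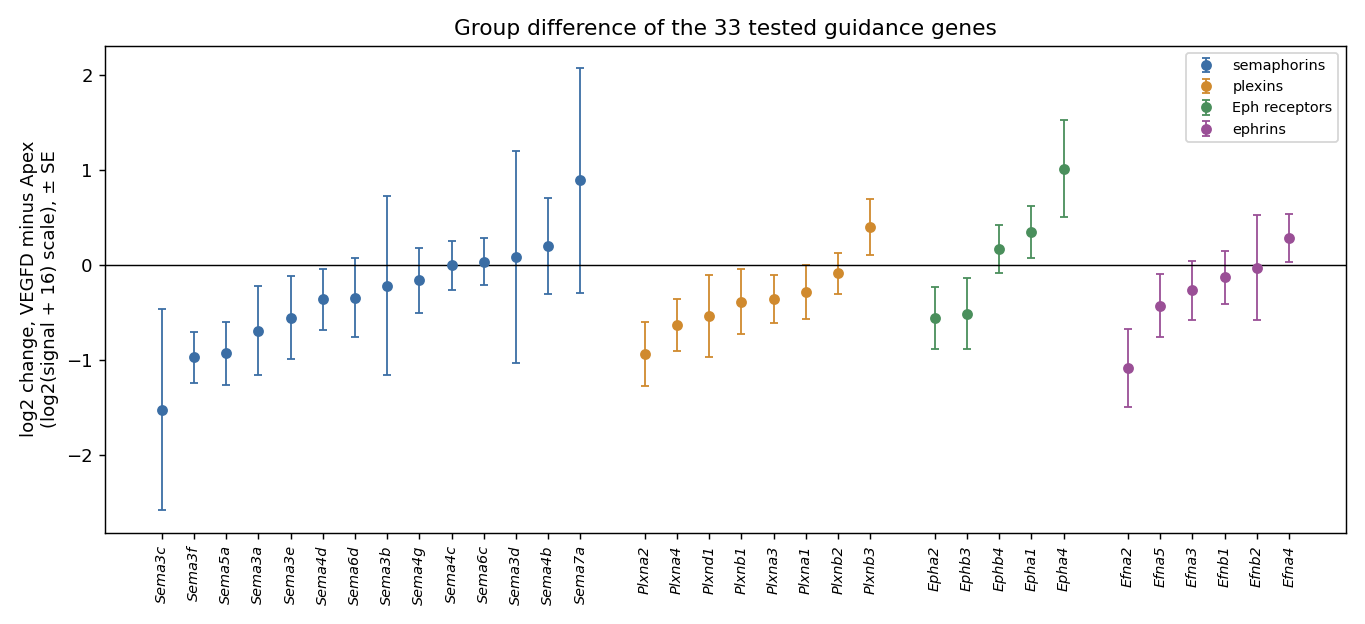
Log2 difference (VEGFD minus Apex) with its SE for the 33 tested genes by family, n = 2 and 2 arrays. The widest bars belong to Sema7a, Sema3d, Sema3c and Sema3b, and no gene passed the adjusted threshold.

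The secreted class 3 semaphorins differed widely between replicates. Over the 6 tested genes the median absolute difference was 0.83 between the Apex and 2.01 between the VEGFD replicates (log2), against 0.25 and 0.35 over all tested genes. Sema3c, the gene of a ligand for neuropilins with A- and D-type plexins, had signals of 1433, 2254, 1989.8 and 183. Its log2 difference was -1.52 ± 1.06 (limma adjusted p = 0.826), yet 3 arrays lay close together and VEGFD replicate 2 lay far below them. Without VEGFD replicate 2 the log2 difference was 0.15, and without VEGFD replicate 1 it was -3.19 and passed the threshold (limma adjusted p = 0.0103). That pass rests on 1 VEGFD array assumed to vary like the Apex arrays, and 372 of all 11677 tested genes passed in the same fit. The second probe set of Sema3c, with 125, 183, 269 and 42.3, was also lowest in VEGFD replicate 2 but highest in VEGFD replicate 1.

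Sema3d, whose product is another secreted ligand, had signals of 216, 98.4, 551 and 37. Its 2 VEGFD arrays were the highest and the lowest of the 4, so that the log2 difference was 0.089 ± 1.12, or 1.80 without VEGFD replicate 2 and -1.62 without VEGFD replicate 1. Its second probe set ran in parallel, at 46.8, 20.5, 155 and 4.93. Sema3b had 77.8, 30.2, 133 and 5.58, again with VEGFD replicate 1 highest and VEGFD replicate 2 lowest, and a log2 difference of -0.21 ± 0.94. Leaving out VEGFD replicate 2 gave 1.18, and leaving out VEGFD replicate 1 gave -1.61. Sema3e, the gene of the plexin D1 ligand, had 516, 489, 526 and 215 and a log2 difference of -0.55 ± 0.43. All 4 of its probe sets had their lowest signal in VEGFD replicate 2 and their highest in VEGFD replicate 1. Without VEGFD replicate 2 the log2 difference was 0.065. On its other probe sets, all over the filter, the log2 difference ran from -0.12 to 0.038. Between the VEGFD replicates the difference (replicate 2 minus replicate 1, log2) was -3.42 for Sema3d, -3.33 for Sema3c, -2.79 for Sema3b and -1.23 for Sema3e.

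The other class 3 genes did not follow VEGFD replicate 2. Sema3f, which encodes a neuropilin-2 ligand, had signals of 60.2, 74.9, 25.0 and 28.0, so that both groups were tight and did not overlap. It had the smallest unadjusted limma p of the members (0.0146), with a log2 difference of -0.97 ± 0.27 and an adjusted p of 0.823. Each analysis with 1 array left out gave a value from -1.10 to -0.84. Its probe set carries the suffix by which Affymetrix marks probes shared with other sequences, and the other 2 probe sets of Sema3f stayed at or below 7.08 on every array. Sema3a, whose product is known in lymphatic valve formation, had 87.8, 243, 86.1 and 85.5. On this probe set only Apex replicate 2 was high, and the log2 difference of -0.69 ± 0.47 was -0.028 without that array. The second probe set over the filter had 33.7, 86.8, 40.0 and 72.2, so that VEGFD replicate 2 was also high, and its log2 difference was -0.024. Sema3g, known from arterial endothelium, had 16.1, 17.3, 2.02 and 3.50 and was not tested, since every signal lay below the filter. In all, 4 of the 6 tested class 3 genes were at least 2-fold apart between the VEGFD replicates, against 12.1% of all tested genes, and 3 of the 6 were so between the Apex replicates, against 4.98%. The grouping by class was chosen after the values were seen.

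**Figure D3:**
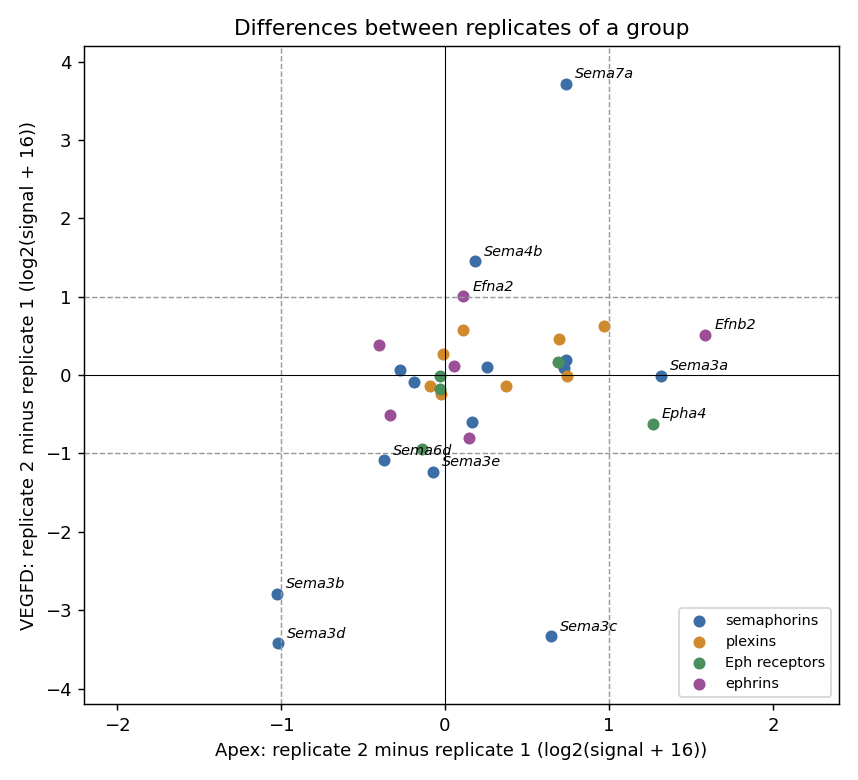
Difference between the replicates of a group (replicate 2 minus replicate 1, log2(signal + 16)) for the 33 tested genes, with Apex on the horizontal and VEGFD on the vertical axis. Dashed lines mark a 2-fold difference, and genes beyond one are named. Sema7a (3.72) lies at the top, and Sema3d (-3.42), Sema3c (-3.33) and Sema3b (-2.79) at the bottom.

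Among the membrane-bound semaphorins, Sema7a ran opposite to Sema3c between the VEGFD replicates. Between the Apex replicates both were higher in replicate 2, by 0.74 for Sema7a and 0.65 for Sema3c (log2). Sema7a, the gene of a lipid-anchored semaphorin that binds integrin beta 1 and plexin C1, had signals of 101, 179, 61.3 and 1002. VEGFD replicate 2 was far above the other 3 arrays and VEGFD replicate 1 was the lowest. The log2 difference of 0.89 ± 1.18 (limma adjusted p = 0.884) became -0.97 without VEGFD replicate 2 and 2.75 without VEGFD replicate 1. Each of these last values rests on 1 VEGFD array. The second probe set, dim elsewhere, had 1.42, 2.70, 1.08 and 31.7. Sema4b had 82.4, 95.8, 56.9 and 184, also with the VEGFD replicates at the extremes, and a log2 difference of 0.20 ± 0.51. Sema6d had 302, 229.8, 306 and 136, with the arrays ranked as for Sema3b, Sema3d and Sema3e, and a log2 difference of -0.34 ± 0.42. Of the 9 smooth muscle and pericyte markers, 6 were also highest in VEGFD replicate 2, and their part in the values of these semaphorins was not tested.

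Sema3c, Sema3d and Sema7a were the members whose VEGFD arrays lay furthest apart, so the 250 bases before their RefSeq start sites are shown, 5′ to 3′ on the gene's strand. Capitals mark the GC box GGGCGG or its complement on the other strand. Sema3c starts after chr5:17574566-17574815, Sema3d after chr5:12382916-12383165 and Sema7a after chr9:57939862-57940111, all on the plus strand of GRCm38.p6.
Sema3c: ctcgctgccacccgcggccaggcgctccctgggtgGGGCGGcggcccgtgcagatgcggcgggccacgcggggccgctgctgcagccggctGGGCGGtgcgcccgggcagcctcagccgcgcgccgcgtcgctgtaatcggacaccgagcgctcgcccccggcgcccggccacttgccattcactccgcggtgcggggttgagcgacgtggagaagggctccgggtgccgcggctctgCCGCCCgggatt
Sema3d: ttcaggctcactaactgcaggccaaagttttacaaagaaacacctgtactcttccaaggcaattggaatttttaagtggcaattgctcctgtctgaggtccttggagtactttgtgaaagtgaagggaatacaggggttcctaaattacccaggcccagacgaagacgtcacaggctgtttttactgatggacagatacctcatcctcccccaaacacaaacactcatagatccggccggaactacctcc
Sema7a: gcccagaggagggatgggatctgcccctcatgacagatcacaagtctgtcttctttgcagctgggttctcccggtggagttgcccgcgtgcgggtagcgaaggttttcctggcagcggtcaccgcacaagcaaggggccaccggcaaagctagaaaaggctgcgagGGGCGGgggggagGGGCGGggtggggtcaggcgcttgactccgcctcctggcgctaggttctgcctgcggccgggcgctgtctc
The Sema3c window was 78.4% G and C and held 3 GC boxes. The Sema7a window was 66.4% with 2, and the Sema3d window was 46.8% with 0. The window of Sema3e, also lowest in VEGFD replicate 2, was 48% with 2, and no window was at hand for Sema3b. The part of GC boxes in the values of these genes was not tested. RefSeq windows were at hand for 44 of the 50 members, 58 windows in all. A GC box on either strand stood in 75.9% of them, against 32.7% of all 32851 windows of that length and 42.6% of those of protein-coding genes. The median G and C content was 64% in member windows and 52.4% in all windows, and the motif shares were not adjusted for it. The TATA box TATAAA stood in 1.72% of member windows, that of Efnb2 alone, against 12.4% of all windows. The AP-1 motif TGANTCA stood in 5.17% against 6.75%, and the E-box CACGTG in 5.17% against 6.02%. No window among the 3 shown held any of these last motifs, and the searched motifs did not overlap there.

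The remaining semaphorins included 4 tested genes with less than a 2-fold difference between replicates besides Sema5a. Sema5a, which encodes a transmembrane protein with thrombospondin repeats, had signals of 123, 216, 72.1 and 84.9. Both VEGFD values lay below both Apex values, the log2 difference was -0.93 ± 0.33 with an unadjusted limma p of 0.0358 and an adjusted p of 0.823, and the second probe set over the filter had 42, 29.2, 17.8 and 24.1. Without Apex replicate 2 the log2 difference was -0.56. Sema4c and Sema6c were level, with 86.6, 68.8, 75.2 and 79.0 for the former and 100.5, 86, 99.5 and 92.3 for the latter. Sema4d, the gene of the plexin B1 ligand, had 43.2, 50.4, 44.1 and 23.7, and Sema4g had 36.2, 70.2, 42.1 and 46.0. Sema4a, Sema4f, Sema5b, Sema6a and Sema6b were not tested. Their signals ran from 1.59 to 62.2, with Sema6b at 62.2 in Apex replicate 2 and Sema4f at 12.6, 23.6, 47.3 and 3.85. The 14 tested semaphorins comprised 10 lower and 4 higher genes with a median of -0.28, or -0.76 without VEGFD replicate 1 and -0.046 without VEGFD replicate 2. Lower without overlap were 3 and higher without overlap 0, where all tested genes had 21.8% and 16.6%.

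The plexins mostly had less signal in VEGFD arrays, without a call. Their median absolute difference (log2) was 0.24 between the Apex and 0.25 between the VEGFD replicates, against 0.25 and 0.35 over all tested genes. On the log2(signal + 16) scale no tested plexin gene was 2-fold apart between replicates. Of all tested genes, 4.98% were so between the Apex and 12.1% between the VEGFD replicates. Less signal in VEGFD arrays was found for 7 of 8 tested plexin genes. Their median log2 difference was -0.37, or -0.18 without Apex replicate 2 and -0.10 with averaged probe sets. In the same fit 53.6% of all tested genes were lower, as were 7 of 7 tested pan-endothelial, 5 of 5 adipocyte and 5 of 6 epithelial markers. The other marker lists were split. Lower were 1 of 3 tested lymphatic endothelial, 4 of 9 fibroblast and 3 of 8 smooth muscle and pericyte markers. So were 5 of 8 nerve and Schwann cell and 3 of 5 leukocyte markers. The 12 pan-endothelial markers summed to 773, 4406, 1207 and 490.2, and Apex replicate 2 was the highest array for 9 of them. The adipocyte markers summed to 6346, 8118, 3852 and 3126 and the epithelial ones to 449, 568, 289.9 and 219.6. The part of these markers in the plexin values was not tested. Plxnb2, which encodes a receptor for class 4 semaphorins, had the highest plexin signal and was nearly level at 688, 643, 657 and 595, with a log2 difference of -0.086 ± 0.22. With arrays centred on their medians that value was 0.037. All 4 A-type plexin genes, whose products signal for class 3 and class 6 semaphorins, had negative log2 differences, with a median of -0.49. With averaged probe sets Plxna2 was at -0.76, while Plxna1, Plxna3 and Plxna4 were at 0.0050, -0.043 and -0.073. Plxna2 had 323, 534, 176 and 249, a log2 difference of -0.94 ± 0.34, an unadjusted limma p of 0.0363 and an adjusted p of 0.823. Its groups did not overlap, and all 4 of its probe sets had a negative difference, from -1.48 to -0.14. Without Apex replicate 2 the log2 difference was -0.59.

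Plxna4 had signals of 65.7, 64.9, 31.7 and 41.7, with both Apex values above both VEGFD values and a log2 difference of -0.63 ± 0.27. Its dimmer probe set pointed the other way (0.48), and with averaged probe sets the value was -0.073. Plxna3 had 103, 101, 84.1 and 69.0 and a log2 difference of -0.36 ± 0.25, also without overlap, and its dimmer probe set had a positive difference (0.27). Plxna1, the plexin known from lymphatic valves, had 459.5, 497, 317 and 479, where VEGFD replicate 1 alone was low. Its log2 difference of -0.28 ± 0.28 was 0.0053 without that array and 0.0050 with averaged probe sets.

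Plxnd1, the SEMA3E receptor gene expressed by endothelium, had signals of 56.0, 125, 40.0 and 70.3. The groups overlapped, Apex replicate 2 was highest, and the log2 difference of -0.54 ± 0.43 was -0.052 without it. Plxnb1 had 46.5, 88.8, 46.1 and 45.8, so that its groups were barely separated and its log2 difference of -0.38 ± 0.34 was -0.011 without Apex replicate 2. Plxnb3 was the 1 tested plexin gene with more signal in VEGFD arrays, at 23.3, 35, 46 and 40.4 and 0.40 ± 0.29, and -0.16 with averaged probe sets. Plxnc1, the gene of the other SEMA7A receptor, stayed at or below 16.7 on its representing probe set and was not tested.

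**Figure D4:**
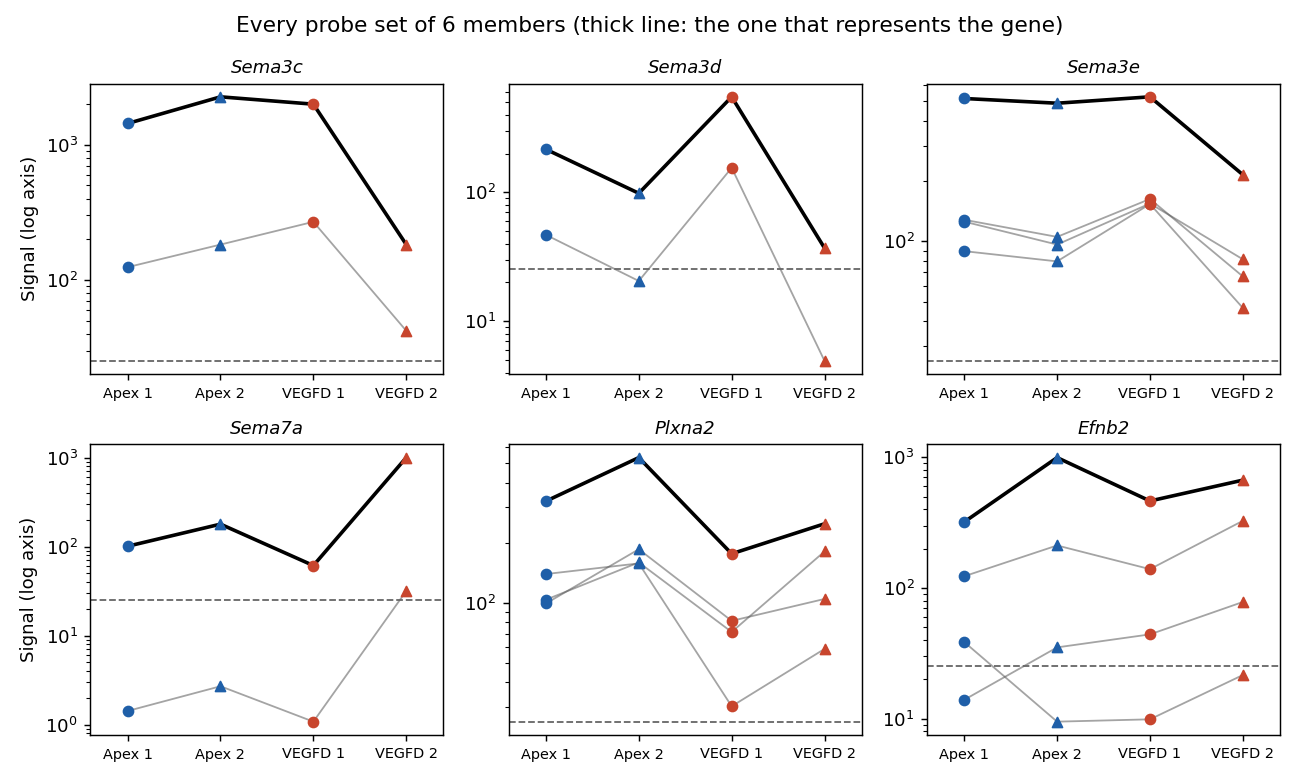
Signal (log axis) of every probe set of Sema3c, Sema3d, Sema3e, Sema7a, Plxna2 and Efnb2 on the 4 arrays, with blue for Apex, red for VEGFD and a dashed line at the filter signal of 25.3. Lines join the values of 1 probe set and imply no order of the arrays. The probe sets of each semaphorin agree on VEGFD replicate 2, those of Plxna2 on the lower value of VEGFD replicate 1, and those of Efnb2 differ in which array is highest.

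Neuropilins, the co-receptors of class 3 semaphorins, also had less signal in VEGFD arrays, without a call. Nrp2 had signals of 148, 246, 34.2 and 122 and a log2 difference of -1.32 ± 0.55 (limma adjusted p = 0.823), with -0.59 when VEGFD replicate 1 was left out, -2.05 when VEGFD replicate 2 was, and -0.87 with averaged probe sets. Nrp1, named after its values were seen, had 446, 708, 200.4 and 532 and a log2 difference of -0.75 ± 0.50, which was -0.078 without VEGFD replicate 1. Both genes were lowest in VEGFD replicate 1, the lowest array for 23.6% of all tested genes. Of the 8 tested plexin genes, Plxna1, Plxna2, Plxna4 and Plxnd1 were also lowest there, 3 were lowest in VEGFD replicate 2 and Plxnb3 in Apex replicate 1. In the whole list of semaphorin co-receptors and effectors, 30 of 32 genes on the arrays were tested, 11 were higher and 19 lower, none passed, and the median was -0.11. Plxdc1 had -0.9995 ± 0.47, which was -0.61 with averaged probe sets. Itgb1, the integrin beta 1 gene and the 1 gene of that list at an unadjusted limma p under 0.05, had 1968, 1592, 3323 and 3485 and a log2 difference of 0.94 ± 0.22 (adjusted p = 0.782). It was named after its values were seen.

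Most Eph receptor genes gave little signal, and 8 of 13 were not tested. The tested ones split into 3 higher and 2 lower with a median of 0.17, from 5 genes. The genes tested changed with the settings, so that the median was -0.51 from 3 genes with averaged probe sets, -0.51 from Ephb3 alone with the stricter filter, and -0.18 or -0.13 from 4 genes with 1 or 64 as the pseudocount. With VEGFD replicate 1 left out the median was 0.082, and with VEGFD replicate 2 left out 0.26. Ephb4, which encodes the ephrin-B2 receptor of veins and lymphatics, was steady, with signals of 79.8, 77.9, 97.6 and 84.4. Its groups did not overlap, but its log2 difference was only 0.17 ± 0.25 (limma adjusted p = 0.895). Ephb3 had 207, 187, 191 and 92.0, where VEGFD replicate 2 alone was low, and its log2 difference of -0.51 ± 0.37 was -0.040 without that array. Epha2, the main ephrin-A1 receptor gene of endothelium and epithelium, had 71.9, 126, 55.6 and 64.4. Its groups did not overlap, and its log2 difference of -0.56 ± 0.33 was -0.21 without Apex replicate 2.

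Epha4 was 1 of the 2 members at least 2-fold apart without overlap, at 3.08, 29.9, 58.1 and 32.1. Apex replicate 2 lay just below VEGFD replicate 2, and the log2 difference of 1.01 ± 0.51 (limma adjusted p = 0.823) was 0.38 without Apex replicate 1. Its other 4 probe sets lay below the filter and had differences from -0.62 to 0.49. Epha1 had 21.1, 20.2, 31.1 and 30.6, tight in both groups, and 0.35 ± 0.27. For Epha4 and Epha1 the Apex mean lay below the filter, so they were tested through the group where they were high. Epha3, not tested, had 11.9, 14.2, 24.7 and 53.0. The remaining untested receptors, Epha5, Epha6, Epha7, Epha8, Epha10, Ephb1 and Ephb6, ran from 3.49 to 30.7.

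Ephrin genes comprised 5 lower and 1 higher of 6 tested, with a median of -0.20, against -0.035 for all tested genes. Leaving out Apex replicate 2 gave a median of -0.34. Efnb2, which encodes the ligand of EphB4 on arteries and lymphatic valves, had signals of 319, 992, 462 and 667. The lowest and the highest value were both Apex arrays, so the log2 difference was -0.025 ± 0.55, and 0.77 without Apex replicate 2 or -0.82 without Apex replicate 1. Centring the arrays on their medians gave 0.098, and averaging the probe sets gave 0.26. Efnb1 had 393, 294, 269.7 and 357 and its groups overlapped in part, at -0.13 ± 0.28. Efnb3 was not tested, with 16.1, 29.3, 7.65 and 30.4.

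Ephrin-A ligands are held by a lipid anchor. Efna2 had signals of 54.6, 60.2, 8.46 and 33.1, with both VEGFD values below both Apex values. Its log2 difference was -1.08 ± 0.41, its unadjusted limma p 0.0426 and its adjusted p 0.823, and it was tested through the Apex arrays, since its VEGFD mean lay below the filter. Without VEGFD replicate 1 the log2 difference was -0.58, and the second probe set had 25.8, 35.1, 33.6 and 17.2, in which the groups overlapped. Efna5 had 252, 280.0, 261 and 143, with VEGFD replicate 2 alone low, and -0.42 ± 0.33, or -0.024 without that array. Efna3 had 86.5, 65.1, 74.7 and 47.5 and -0.26 ± 0.31. Efna4 was the 1 tested ephrin gene with more signal in VEGFD arrays, at 48.6, 51.2, 61.4 and 67.5 and 0.29 ± 0.26. Efna1, the gene of a ligand that tumour necrosis factor induces in endothelium, stayed at or below 22.7 and was not tested.

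Apex replicate 2 was the highest array for 14 of the 33 tested members, among them Sema3a, Sema5a, Plxna2, Plxnd1, Plxnb1, Epha2 and Efnb2, where it was the highest for 29.7% of all tested genes. It was also the highest for 9 of the 12 pan-endothelial markers. The part of those markers in the values of these members was not tested. VEGFD replicate 2 was the lowest array for 13 of the 33, against 35.5% of all tested genes. Among Eph and ephrin signalling partners, 22 of 30 genes were tested, with 10 higher, 12 lower, none past the threshold and a median of -0.058. Tiam1, a Rac exchange factor gene, had 146, 86.1, 202 and 178 and a log2 difference of 0.68 ± 0.31, and Abl2, a tyrosine kinase gene, had 297, 337, 405 and 589.7 and 0.60 ± 0.27. With averaged probe sets these were 0.19 and 0.27.

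Other guidance families (slits, netrins and their receptors) had 16 lower and 1 higher of 17 tested genes, with a median of -0.43 and none past the threshold. Of all tested genes 53.6% were lower, with a median of -0.035. VEGFD replicate 2 was the lowest array for 10 of the 17, against 35.5% of all tested genes. Apex replicate 2 was the highest for 8, against 29.7%. Ntn4, which encodes the vascular netrin-4, had 281, 1563, 234 and 53.6 and a log2 difference of -2.38 ± 0.95 that was -1.17 without Apex replicate 2. Ntn1, the netrin-1 gene, had 119, 152, 62.1 and 13.9 and a log2 difference of -1.64 ± 0.50, which was -0.995 with averaged probe sets and -0.95 without VEGFD replicate 2. Without VEGFD replicate 1 the log2 difference was -2.33, a value that rests on 1 VEGFD array.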

How the data were processed

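The authors deposited linear intensity values, 1 signal per probe set, made after one-cycle biotin labelling per the labels' protocols, and the labels do not name the software. The deposited intensities show that each array had a mean of 150 after trimming 2% of probe sets at each end. Depth has no meaning here, and the number of arrays limits the precision. No detection calls were used. The extraction label names lymph node endothelium where the others name collecting lymphatics, and the latter were followed.

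Of 45101 probe sets, 64 were controls and 34945 had 1 symbol. Values were used as log2(signal + 16). Genes whose mean reached the median of non-control probe sets (5.37, a signal of 25.3) were tested, two-sided, with limma 3.58.1 in R 4.3.3 (lmFit, eBayes with an intensity trend, Benjamini-Hochberg over 11677 genes, threshold 0.05). The fit was tested on simulated data. An exact permutation test of 2 against 2 arrays cannot go below p = 0.333. Named with full values were, per family, the 3 brightest and the 2 most changed tested members, those 2-fold apart without overlap and 8 vessel genes, with the 2 most changed of each pathway list; other members named were chosen after their values were seen. Members and lists were chosen with earlier results of these data known. Alternatives covered scaling, pseudocount, filter, probe sets, trend, a replicate block and left-out arrays. Promoter sequences came from RefSeq, GRCm38.p6. Levels of different probe sets are not comparable as amounts of RNA.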

Additional observations from a re-analysis of the deposited data

How the results depend on the processing

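The count of called members stayed at 0 under 12 of 13 alternatives. The exception was the fit without VEGFD replicate 1, in which Sema3c and Sema7a passed. That fit rests on 1 VEGFD array, and many other genes passed in it too. Nothing in the labels ties arrays of 1 number together (r = 0.20 between their deviations, across genes), and with the replicate number as a block 0 members were called and 2 were 2-fold apart without overlap, as without it. That second count was 2 in the report, 1 with arrays centred on their medians or quantile normalized, 3 with a pseudocount of 1, 0 with a pseudocount of 64, the stricter filter or averaged probe sets, and 2 to 7 with 1 array left out. The median change of the semaphorins (-0.28) was -0.15 with centred arrays, -0.18 quantile normalized, -0.44 and -0.14 with pseudocounts of 1 and 64, -0.23 without the filter, -0.34 with the stricter filter, -0.16 with averaged probe sets, and -0.76 to -0.046 with 1 array left out. That of the Eph receptors (0.17) was 0.29 with centred arrays, -0.18 and -0.13 with those pseudocounts, 0.046 without the filter, -0.51 with the stricter filter (1 gene left) and with averaged probe sets (3 genes left), and 0.082 to 0.26 with 1 array left out. That of the plexins (-0.37) was -0.10 with averaged probe sets and -0.48 to -0.18 with 1 array left out, and that of the ephrins stayed between -0.34 and -0.073 over all 13. Signs turned for Efnb2 (0.098), Plxnb2 (0.037) and Sema4c (0.12) with centred arrays, for Sema4c (0.050) quantile normalized, for Sema3d (-0.020) with a pseudocount of 1 and Sema3b (0.020) with 64, and for Efnb2 (0.26), Plxna1 (0.0050), Plxnb3 (-0.16) and Sema6c (-0.20) with averaged probe sets. With 1 array left out the changes that turned ranged from -0.33 to 0.073 for Efnb1, -0.82 to 0.77 for Efnb2, -0.57 to 0.0053 for Plxna1, -1.61 to 1.18 for Sema3b, -3.19 to 0.15 for Sema3c, -1.62 to 1.80 for Sema3d, -1.17 to 0.065 for Sema3e, -0.52 to 0.93 for Sema4b, -0.14 to 0.13 for Sema4c, -0.52 to 0.20 for Sema4g, -0.059 to 0.13 for Sema6c, -0.88 to 0.20 for Sema6d and -0.97 to 2.75 for Sema7a. The cause of these shifts was not tested.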
